A study of Mus musculus with 59 samples.

Results

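The lungs of 4 mice given the lowest dose of a polycyclic aromatic hydrocarbon were compared with the lungs of 5 mice given the vehicle, which are 9 of the 59 arrays of the series. The arrays were chosen by their source labels (D1_lung against D0_lung). All animals were male MutaTMMouse, a transgenic strain that carries a bacterial lacZ reporter for mutations in every cell, aged about 16 weeks. They were gavaged daily for 28 days with olive oil alone (vehicle, mice 1 to 5) or with 25 mg/kg-bw/day of the compound in olive oil (low dose, mice 6, 8, 9 and 10), and tissue was taken 72 h after the last dose. The low-dose mice lacked mouse 7, which has no lung array in the series. The title and treatment text of the series name the compound as benzo(b)fluoranthene (BbF), and every sample title carries the tag BbF. The design text of the series and the exposure field of each sample name benz(a)anthracene instead. In the paper the low, medium and high doses of this series are those of BbF, whereas benz(a)anthracene was given at other doses. Between these names, the doses thus match BbF only. The medium (50 mg/kg-bw/day) and high (100 mg/kg-bw/day) doses, with 5 lungs each, and the livers and forestomachs of the same mice are used below only where they show how the low dose differed.

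Each array carried RNA of a random lung section labelled with Cy5 and a universal mouse reference RNA, pooled from cell lines, labelled with Cy3. The value of a gene was log2(Cy5/Cy3), so that a negative value lies below the reference, and values of different genes cannot be ranked against each other. A gene was called a differentially expressed gene (DEG) when 1 of its probes changed by at least 1.5-fold with an adjusted p of 0.05 or less by limma. RNA of a whole section was measured, so fewer cells of a type and less RNA per cell cannot be told apart.

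Between 44.8% and 49.7% of probes were well above background on the vehicle arrays and between 45.9% and 49.9% on the low-dose arrays. Medium-dose mouse 13 stood at 68.8%, against 48% to 52.7% on the other medium- and high-dose lungs. With or without that array no gene passed between the medium and the low dose. Surfactant protein C (Sftpc), the defining product of alveolar type II cells, averaged 7.12 in vehicle and 7.10 in low-dose lungs on the log2 scale. All 8 alveolar type II markers were slightly negative in change, from -0.2 to -0.02. In their mean 2 of 4 low-dose mice lay below all vehicle mice. None of the 18 cell type marker lists, of 3 to 8 genes each, held a DEG. Over all genes 0.422% rose and 0.0269% fell. Some marker means still moved with the dose group. The mean log2 ratio of 6 B cell markers was 0.35 to 1.21 in vehicle and 0.62 to 1.40 in low-dose lungs, with 3 of 4 low-dose mice above all vehicle mice and all 6 markers positive in change. That of 4 megakaryocyte markers averaged 1.97 in vehicle and 1.62 in low-dose lungs, with 3 of 4 below all vehicle mice. That of 4 erythroid markers was 2.02 to 2.49 and 2.29 to 2.56, with 2 of 4 above. The part of these cells in the results was not tested. The arrays lay on 3 slides, each with vehicle and low-dose mice. Vehicle mouse 2 stood apart. Its log2 ratio of Cyp1a1, the monooxygenase that such hydrocarbons induce through the aryl hydrocarbon receptor (AhR), was 8.39, against 2.06 to 2.97 in the other vehicle lungs, and it was also the highest vehicle mouse in liver (2.84 against -0.14 to 0.72) and forestomach (4.39 against 0.36 to 1.85). Low-dose mouse 6 had a mean log2 ratio of 2.95 over squamous epithelium markers, against -1.22 to -1.09 in the other low-dose lungs. Its keratin 13 (Krt13) value was 4.17, whereas the other 3 low-dose lungs lay between -2.06 and -1.66. The part of this signal in the results was not tested, and the counts of DEGs without either mouse are given beside the low-dose results.

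The low dose altered 167 of the 37163 genes and transcripts measured. Of these, 157 rose, which is 0.422% of all genes, and 10 fell, which is 0.0269%. A total of 59 of the raised genes belonged to the lists of mitosis or DNA replication genes, and other raised genes were targets of the tumour suppressor p53 or outputs of the circadian clock. Without vehicle mouse 2 there were 150 DEGs, and without low-dose mouse 6 there were 153. The lowered genes numbered 4 without vehicle mouse 5 and 5 without vehicle mouse 1, and also 5 with the vehicle and low-dose arrays alone. Without vehicle mouse 3 they numbered 14. The median change over all genes was 0.00 on the log2 scale.

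**Figure D1:**
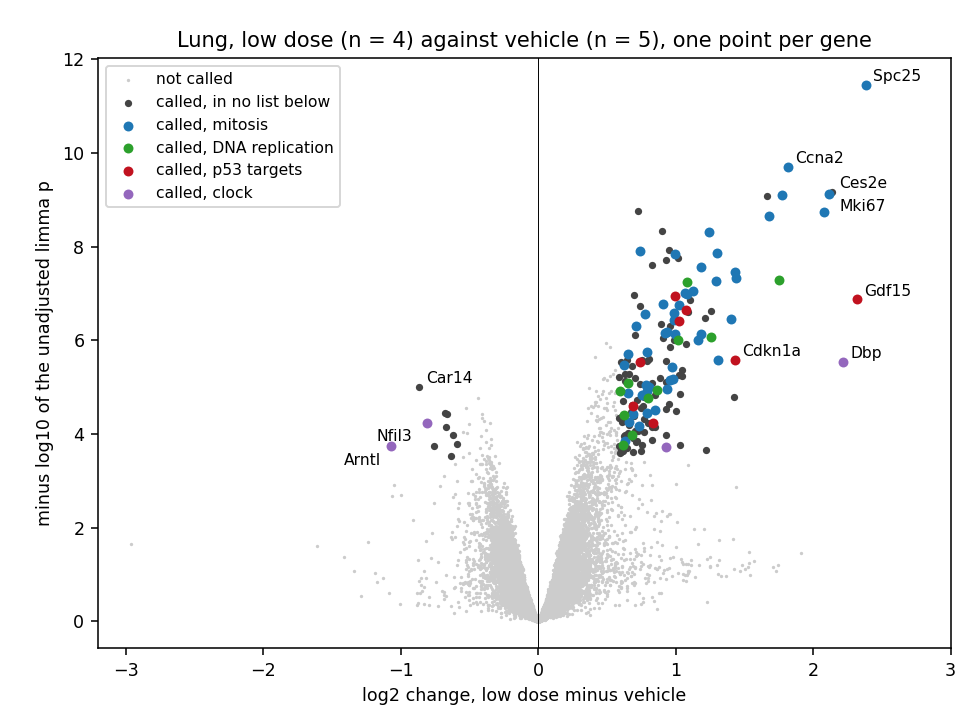
Change of each gene at the low dose in lung (x axis, log2 low over vehicle) against the strength of the limma test (y axis, -log10 of the unadjusted p), with the genes of the described lists in colour. Of the 167 DEGs, 157 lie on the right and 10 on the left, and Spc25 (2.38), Gdf15 (2.32) and Dbp (2.22) lie farthest to the right.

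The raised genes were alike over the animals. In 148 of the 157 raised genes all 4 low-dose mice lay above all 5 vehicle mice, and in 8 of the 10 lowered genes all lay below; over all genes, taken by their brightest probe, 2.65% were separated upwards and 1.44% downwards. Mouse 6 exceeded every vehicle mouse in 151 of the 157 raised genes, mouse 8 in 156, mouse 9 in 155 and mouse 10 in 156. The threshold itself favours genes with little spread, so these counts describe the DEGs and are no test. All 167 DEGs kept their direction within each of the 3 slides. Genes whose groups do not overlap must do so, so this is no test either.

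Mitosis is the phase in which duplicated chromosomes are condensed, attached to the spindle through their kinetochores, separated and enclosed in daughter cells. Its genes are switched on together late in the cell cycle by a complex of MuvB proteins with B-Myb and FOXM1, which acts through the cell cycle genes homology region (CHR) and the CCAAT boxes of their promoters, and p53 lowers the same genes through p21. DNA replication genes are switched on earlier, by E2F factors. In the adult lung few cells divide.

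Promoters are shown for the 4 mitosis genes with the largest increases for which the reference tables held one. They give the 250 bases before the RefSeq gene start on GRCm38.p6, at chr2:69206214-69206463 (minus strand) for Spc25, chr7:135716380-135716629 (minus strand) for Mki67, chr8:22185820-22186069 (minus strand) for Ckap2 and chr11:117848987-117849236 (plus strand) for Birc5. Capitals mark the CHR letters TTTGAA and the CCAAT box, on either strand.
Spc25: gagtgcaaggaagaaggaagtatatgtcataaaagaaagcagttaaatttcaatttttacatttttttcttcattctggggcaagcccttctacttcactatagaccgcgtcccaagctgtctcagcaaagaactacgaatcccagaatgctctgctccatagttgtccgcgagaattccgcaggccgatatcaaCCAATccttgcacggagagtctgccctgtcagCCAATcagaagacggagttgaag
Mki67: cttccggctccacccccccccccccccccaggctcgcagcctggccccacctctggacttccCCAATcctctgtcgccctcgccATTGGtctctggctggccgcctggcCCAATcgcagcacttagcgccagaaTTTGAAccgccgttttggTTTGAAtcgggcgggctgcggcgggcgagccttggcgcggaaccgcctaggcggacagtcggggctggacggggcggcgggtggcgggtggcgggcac
Ckap2: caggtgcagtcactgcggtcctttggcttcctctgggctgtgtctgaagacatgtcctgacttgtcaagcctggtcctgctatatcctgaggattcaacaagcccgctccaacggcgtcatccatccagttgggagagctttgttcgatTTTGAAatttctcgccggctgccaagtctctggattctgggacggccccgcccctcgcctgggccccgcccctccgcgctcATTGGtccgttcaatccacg
Birc5: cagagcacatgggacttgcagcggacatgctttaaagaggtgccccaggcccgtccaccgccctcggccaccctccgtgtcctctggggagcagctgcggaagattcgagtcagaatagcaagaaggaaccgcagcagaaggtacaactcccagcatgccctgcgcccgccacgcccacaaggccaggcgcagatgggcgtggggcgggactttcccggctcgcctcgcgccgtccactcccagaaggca

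Spc25 held 2 CCAAT boxes, Mki67 held 2 CHR matches and 3 CCAAT boxes, Ckap2 held 1 of each, and Birc5 held neither in this window. Among the 41 raised mitosis genes with a promoter, 34.1% held a CHR match and 63.4% a CCAAT box, and 29.3% held both. Of the 44 other listed mitosis genes with a promoter, 20.5% held a CHR match, 63.6% a CCAAT box and 13.6% both. These were drawn from all listed genes that were not raised, which include Kif14 and Kifc1 without a matched probe. Over all 27025 promoters of this length the shares were 16.3%, 34.5% and 5.73% for CHR, CCAAT and both. These matches are letters found on either strand and were not tested as binding sites.

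Of 100 mitosis genes on the array, 48 rose at the low dose and none fell, which is 48.0% beside 0.422% of all genes raised. Their log2 changes ran from 0.62 to 2.38, or 1.54-fold to 5.21-fold. In all 48 the low-dose mice did not overlap the vehicle mice, but the thresholds that chose them favour such genes. The SD among the 4 low-dose mice was 0.04 to 0.32 in the 48 genes. Over the whole list, called or not, the median change was 0.54 against 0.00 for all genes, and 97 members had a positive value. By the brightest probe, 63 of the 100 list members were separated upwards without overlap, beside 2.65% of all genes. The count of raised mitosis genes was 44 without low-dose mouse 6 and 46 without vehicle mouse 2.

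**Figure D2:**
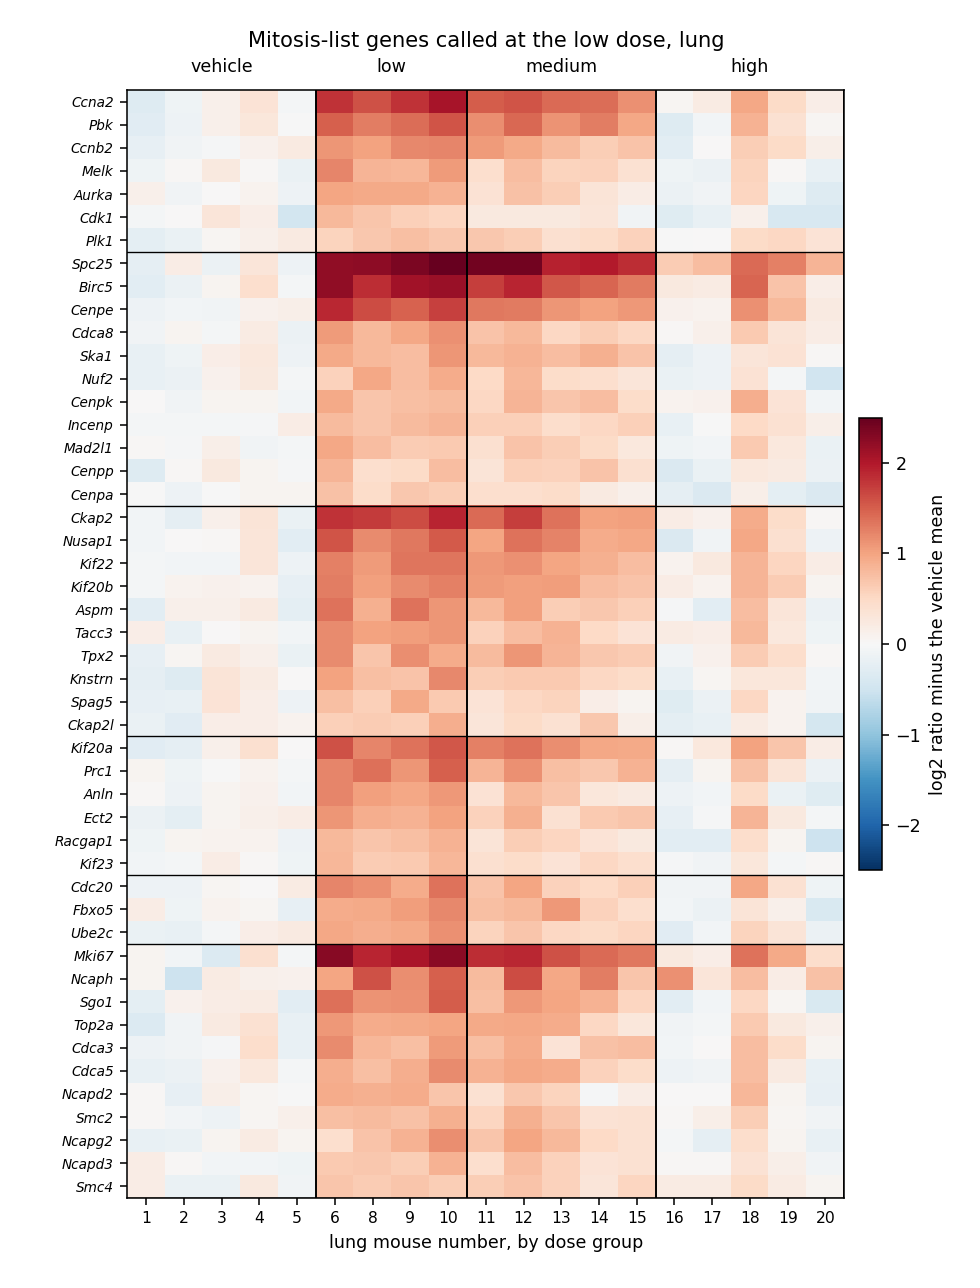
Log2 ratio of the 48 raised mitosis genes (rows, grouped by role) in each of the 19 lung mice (columns, grouped by dose), minus the mean of the vehicle mice. The 4 low-dose columns are raised throughout, the 5 medium-dose columns are raised to differing degrees, and most high-dose values lie near those of the vehicle, with mouse 18 mostly the highest of that group.

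Among genes of the kinetochore and centromere 11 of 29 rose, with a median of 0.44 over the 29. Spc25, a subunit of the NDC80 complex that binds spindle microtubules, had the largest increase of all genes. Its log2 ratios were -4.30, -3.89, -4.22, -3.78 and -4.20 in vehicle mice 1 to 5 and -1.86, -1.85, -1.73 and -1.35 in low-dose mice 6, 8, 9 and 10. The highest vehicle mouse thus lay far below the lowest low-dose mouse, a change of 2.38 ± 0.17 (SE), or 5.21-fold (adjusted p = 1.96e-07, limma). The probe was well above background in all 9 lungs. Birc5 (survivin), a subunit of the chromosomal passenger complex, lay at -4.56, -4.45, -4.24, -3.88 and -4.35 in vehicle mice and at -2.08, -2.45, -2.21 and -2.14 in low-dose mice. It changed by 2.08 ± 0.20 (SE, adjusted p = 1.13e-05, limma). Of the 3 Birc5 probes 2 were called, and the lowest gave 0.38. The Birc5 partners Cdca8 (1.00) and Incenp (0.78) rose as well. The kinase of that complex, Aurkb, did not pass, with a change of -0.03 (adjusted p = 0.978, limma). Cenpe, the kinetochore motor, rose by 1.68 ± 0.17 (SE). The other raised members were Cenpa (0.62), Cenpk (0.79), Cenpp (0.63), Nuf2 (0.81), Ska1 (0.91) and Mad2l1 (0.76), a checkpoint protein. Ska1 was not well above background in any vehicle lung, so that its rise was at least 1.79-fold.

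Of the cyclins and kinases that start and order mitosis 7 of 16 rose, with a median of 0.58. Ccna2 (cyclin A2) lay at -4.22, -4.00, -3.77, -3.54 and -3.93 in vehicle mice and at -2.09, -2.29, -2.09 and -1.83 in low-dose mice. Every low-dose mouse was above every vehicle mouse, and the change was 1.81 ± 0.16 (SE, adjusted p = 5.43e-06, limma). Pbk (1.44), Ccnb2 (cyclin B2, 1.13), Melk (0.99), Aurka (0.94) and Plk1 (0.66) also rose. Cdk1, the kinase that cyclins A and B activate, rose by 0.66 through 1 of its 3 probes, and the lowest of the 3 was at -0.07. Ccnb1 (cyclin B1) did not pass, at 0.77 (adjusted p = 0.056, limma), although its low-dose mice, between -3.05 and -2.76, lay above its vehicle mice, between -4.01 and -3.38. The kinase Ttk was at -0.04 and Bub1 at 0.49, neither of which passed.

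In condensin, cohesion and chromosome structure 11 of 14 genes rose, with a median of 0.82. Mki67, the gene of the Ki-67 antigen that marks cycling cells, lay at -4.28, -4.41, -4.69, -3.95 and -4.40 in vehicle mice and at -2.08, -2.44, -2.30 and -2.09 in low-dose mice. The groups were far apart, and the change was 2.12 ± 0.20 (SE), or 4.34-fold (adjusted p = 7.53e-06, limma). The condensin subunits Ncaph (1.31), Ncapd2 (0.85), Ncapg2 (0.79), Smc2 (0.79), Ncapd3 (0.71) and Smc4 (0.66) rose together with the cohesion protectors Sgo1 (1.29) and Cdca5 (0.94). Top2a, the topoisomerase that disentangles sister chromatids, rose by 0.98 ± 0.16 (SE).

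Of the 8 cytokinesis genes 6 rose, with a median of 0.88. These were Kif20a (1.44), Prc1 (1.30), Anln (1.07), Ect2 (0.98), Racgap1 (0.78) and Kif23 (0.74), which build the central spindle and the contractile ring. Of the 21 spindle motors and microtubule-associated proteins 10 rose, led by Ckap2 (1.77 ± 0.17 SE), Nusap1 (1.40), Kif22 (1.25), Kif20b (1.18), Aspm (1.18) and Tacc3 (1.08). Ckap2 was well above background in only 2 of the 5 vehicle lungs. The members Spag5 and Ckap2l were not well above background in any vehicle lung. Ckap2l rose at least 1.53-fold, and Spag5 was called at a fitted change of 0.74, for which no lower bound is given. Of the 8 genes of the anaphase-promoting complex and mitotic exit 3 rose, which were its activator Cdc20 (1.16), its ubiquitin-conjugating enzyme Ube2c (0.99) and its inhibitor Fbxo5 (1.02). None of the 4 transcription factors of mitotic genes passed, with Foxm1 at 0.51 (adjusted p = 0.104, limma), Lin9 at 0.46, Mybl2 at 0.27 and Lin54 at 0.15.

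Taken as the mean log2 ratio over the 100 mitosis genes, the vehicle lungs lay between -2.62 and -2.39 and the low-dose lungs between -1.92 and -1.82, so the low-dose mice were separate from the vehicle mice and closer to each other (SD 0.04 against 0.11). The difference between low-dose and vehicle mice was 0.75, 0.51 and 0.78 within slides 1, 2 and 3. Each low-dose animal showed it. Mouse 6 exceeded all vehicle mice in 72 of the 100 genes, mouse 8 in 77, mouse 9 in 82 and mouse 10 in 79, whereas over all genes these mice did so in 20.5%, 15.4%, 16.7% and 20.3%. The median distance of the mitosis genes from the vehicle mean was 0.58, 0.50, 0.59 and 0.61 in the same mice.

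**Figure D3:**
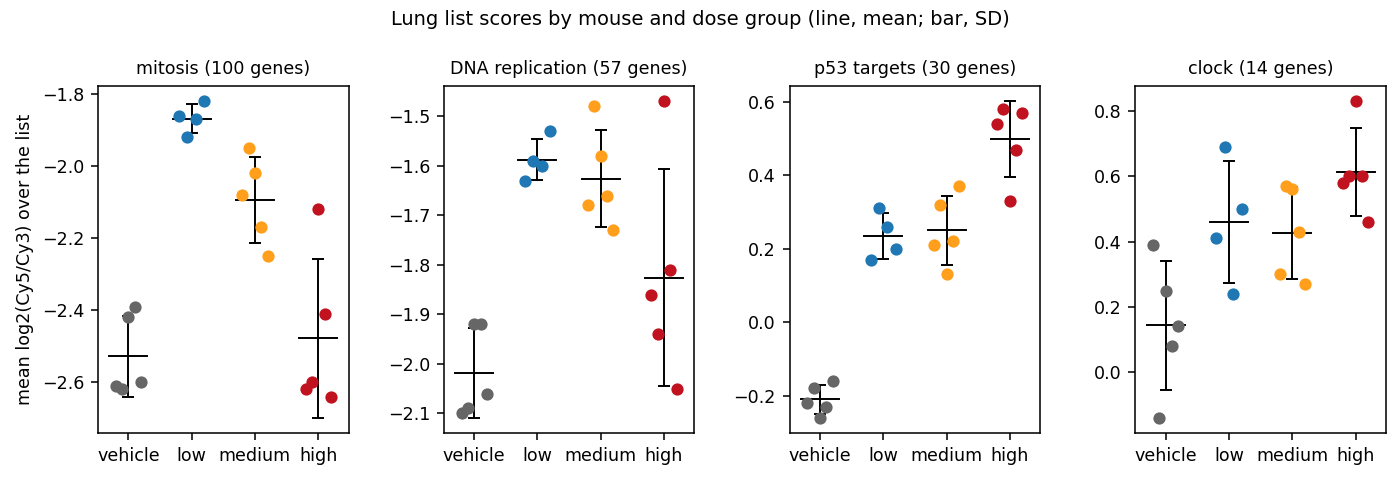
Mean log2 ratio over the genes of the mitosis, DNA replication, p53 target and clock lists (y axis) in each lung mouse, by dose group (x axis), with group means. In the mitosis panel the 4 low-dose mice sit between -1.92 and -1.82, above all vehicle mice and above all high-dose mice, while in the p53 panel the high-dose group has the highest mean.

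Of 57 DNA replication genes on the array 11 rose and none fell, or 19.3% beside 0.422% of all genes, with a median of 0.40 over the list. In 33 of the 57 all low-dose mice lay above all vehicle mice, as they did in 2.65% of all genes. The count of 11 became 8 without vehicle mouse 2 and 9 without low-dose mouse 6. It was also 8 without mouse 1, 9 or 10. Rrm2, the regulated subunit of ribonucleotide reductase that supplies deoxynucleotides, lay at -4.50, -4.43, -4.16, -3.92 and -4.39 in vehicle mice and at -2.62, -2.56, -2.48 and -2.44 in low-dose mice. The change was 1.75 ± 0.21 (SE), or 3.37-fold (adjusted p = 0.000112, limma). Uhrf1 (1.26), which carries DNA methylation through replication, the histone chaperone Asf1b (1.02), the helicase subunits Mcm7 (0.86) and Mcm5 (0.62), the primase subunit Prim1 (0.69), the fork protein Timeless (0.65), thymidine kinase Tk1 (0.62) and the sliding clamp Pcna (0.60) rose too. Uhrf1 and E2f7 had another probe of the opposite sign. The repressors E2f7 (1.08) and E2f8 (0.80), which shut replication genes off again, were the raised members among the G1/S cyclins and E2F factors. Mcm6 did not pass at 0.89 ± 0.30 (SE), with its vehicle mice spread from -3.82 to -2.44. Mcm5 was called with an adjusted p of 0.0328 by limma and lost its call when any 1 of 8 of the 9 mice was left out. Prim1 lost its call without mouse 1, 2, 5, 6, 9 or 10, Pcna without mouse 1, 9 or 10, and Tk1 without mouse 2. Among recombination and crosslink repair genes Bard1 (0.66) rose, whereas Brca1 was at -0.07 and Chek1 at -0.02. Bard1 had another probe of the opposite sign and lost its call without mouse 2, 8, 9 or 10.

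p53 is activated by DNA damage and induces inhibitors of the cell cycle and mediators of apoptosis. Of 30 p53 targets 8 rose and none fell, or 26.7% beside 0.422% of all genes, with a median of 0.28. Cdkn1a, which encodes the kinase inhibitor p21, lay at -1.04, -0.99, -1.04, -1.50 and -0.21 in vehicle mice and at 0.02, 0.62, 0.80 and 0.47 in low-dose mice. The groups did not overlap, but vehicle mouse 5 came close to low-dose mouse 6, and the change was 1.43 ± 0.22 (SE, adjusted p = 0.00182, limma). Gdf15, a secreted stress cytokine, lay at -2.78, -2.23, -2.28, -2.56 and -2.04 in vehicle mice and at -0.63, -0.11, 0.65 and -0.15 in low-dose mice. It rose by 2.32 ± 0.30 (SE), or 4.98-fold (adjusted p = 0.000219, limma), the largest change among the p53 targets.

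The apoptosis effector Bax lay at -1.10, -1.07, -0.88, -0.91 and -0.64 in vehicle mice and at -0.19, 0.22, 0.18 and 0.40 in low-dose mice, a change of 1.07 ± 0.14 (SE, adjusted p = 0.000309, limma). The death receptor Tnfrsf10b (0.69), the exonuclease Aen (1.00), Phlda3 (1.03), which restrains Akt, Ccng1 (cyclin G1, 0.84) and Trp53inp1 (0.74) rose as well. Mdm2, the ubiquitin ligase that p53 induces against itself, did not pass, at 0.22 (adjusted p = 0.469, limma), and Btg2 was at -0.18. Ddb2, a damage sensor of nucleotide excision repair, had an adjusted p of 0.0479 by limma with a change of 0.41, under 1.5-fold. Over the 30 targets the mean log2 ratio was -0.26 to -0.16 in vehicle and 0.17 to 0.31 in low-dose mice. Mouse 6 had the smallest shift, with a median of 0.18 over the targets against 0.37, 0.30 and 0.32 in mice 8, 9 and 10. Without vehicle mouse 2 the count was 9 and without low-dose mouse 6 it was 8, and Ccng1 lost its call without mouse 8 or 10.

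**Figure D4:**
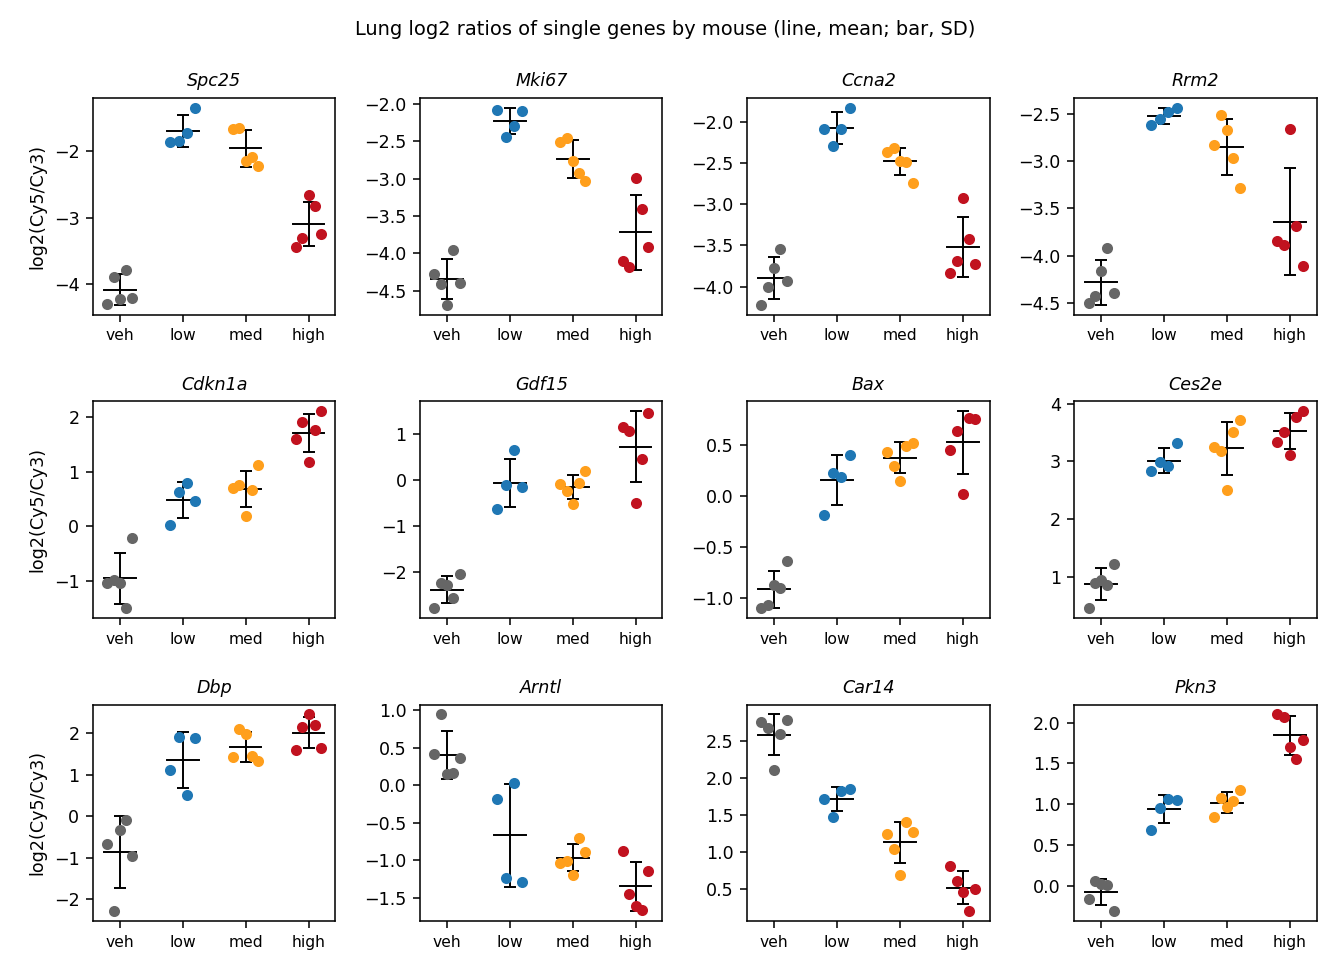
Log2(Cy5/Cy3) of 12 genes (panels) in each lung mouse (points) by dose group (x axis), with group means. Spc25, Mki67, Ccna2 and Rrm2 have their highest mean at the low dose, whereas Cdkn1a, Gdf15, Bax and Pkn3 are highest at the high dose and Arntl and Car14 fall over the doses.

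Of 14 genes of the circadian clock 2 rose and 2 fell, and the other 10 did not pass. The 2 that rose, beside 0.422% of all genes, were among 10 output genes with a median of 0.58. The 2 that fell, beside 0.0269% of all genes, were among the 4 genes of the activators and Nfil3, with a median of -0.58. Dbp, a transcription factor that the clock drives through E-boxes, lay at -0.67, -2.29, -0.32, -0.09 and -0.95 in vehicle mice and at 1.12, 1.91, 0.51 and 1.89 in low-dose mice. It rose by 2.22 ± 0.35 (SE, adjusted p = 0.00189, limma). Arntl (BMAL1), the activator itself, lay at 0.41, 0.94, 0.15, 0.16 and 0.36 in vehicle mice and at -0.19, -1.23, 0.03 and -1.28 in low-dose mice. The groups did not overlap, but mice 6 and 9 lay near the vehicle and mice 8 and 10 far below, and the change was -1.07 ± 0.24 (SE, adjusted p = 0.0334, limma). Nfil3, a repressor that competes with Dbp for its sites, changed by -0.81 ± 0.16 (SE), and Nr1d2 (REV-ERB beta) rose by 0.93 ± 0.21 (SE). Nr1d1 (0.81), Tef (0.70) and Clock (-0.36) had adjusted p values of 0.0824, 0.0817 and 0.0763 by limma and did not pass, and Per1 was at 0.02. Vehicle mouse 2 had the lowest Dbp and the highest Arntl and Nfil3 of the vehicle mice. Without it Nr1d2 and Arntl lost their calls, with changes of 0.77 and -0.94. Arntl also lost its call without mouse 1, 5, 8 or 10, Nr1d2 without mouse 4, 5, 6, 8 or 10, and Nfil3 without mouse 8 or 10. The time of day at which each mouse was taken is not given in the sources used here, and its part was not tested. The E-box letters CACGTG stood in 4 of 9 promoters of the output genes and in 6.05% of all promoters.

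Among the genes outside the lists, chosen after their values were seen unless they were among the 10 largest changes in either direction or the 5 largest differences between doses, several also act in division. Pimreg, a regulator of chromosome segregation, rose by 1.66 ± 0.16 (SE) and, of the genes raised at the low dose, was the one that lay lowest at the high dose relative to it. Shcbp1 (1.26) and Iqgap3 (1.05) of the midbody and cell cortex, Ccnf (cyclin F, 0.93), Cdkn3 (0.93), Haspin (0.89), Kntc1 (0.73), Trip13 (0.68) and Cenpw (0.60) rose too. Shcbp1 was well above background in only 3 of the 5 vehicle lungs. Kifc5b rose by 0.95. It is a near-identical copy of Kifc1, which had no matched probe, so the signal cannot be assigned to one of them. Dtl (0.80), Topbp1 (0.60) and Fignl1 (1.03) act at replication forks or in recombination.

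The largest change of a metabolic gene was that of Ces2e, a carboxylesterase. It lay at 0.46, 0.90, 0.95, 0.86 and 1.22 in vehicle mice and at 2.83, 2.99, 2.92 and 3.32 in low-dose mice. The change was 2.14 ± 0.20 (SE), or 4.40-fold (adjusted p = 7.53e-06, limma), while its other probe gave 0.37. Ces2c (1.43, through 1 of 3 probes, the lowest at 0.00) and the epoxide hydrolase Ephx1 (0.59), which hydrates epoxides of aromatic hydrocarbons, rose as well. Mmrn2, an endothelial matrix protein, lay between 5.55 and 5.86 in vehicle mice and at 6.17, 7.09, 7.15 and 7.26 in low-dose mice, with mouse 6 apart from the others. Its change of 1.22 (adjusted p = 0.0384, limma) did not pass when any of 8 of the 9 mice was left out. Pkn3, a protein kinase, lay between -0.31 and 0.06 in vehicle and between 0.69 and 1.07 in low-dose mice, a change of 1.02 ± 0.11 (SE, adjusted p = 5.34e-05, limma). Palmd (0.96), Igfbp2 (0.82), Serp2 (0.75) and the DNA sensor Cgas (0.83) also rose. The ventricular myosin light chain Myl2 rose at least 1.82-fold, and the mean log2 ratio of heart muscle markers varied between 0.18 and 3.77 among the vehicle lungs. Its part in Myl2 was not tested. The long noncoding RNA Neat1 rose by 0.93 with overlapping groups, and a second entry of the array under the name NEAT1 gave 0.85, counted separately. In all, 30 of the 167 DEGs had no symbol.

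Of the 10 lowered genes 6 had a symbol. Car14, a membrane carbonic anhydrase, lay at 2.76, 2.67, 2.11, 2.60 and 2.78 in vehicle mice and at 1.72, 1.48, 1.82 and 1.85 in low-dose mice, a change of -0.87 ± 0.15 (SE, adjusted p = 0.0047, limma). Ccnjl, a cyclin-like gene, changed by -0.66 ± 0.13 (SE), with mice 8 and 10 lowest at -2.18 and -2.08, and lost its call without either of them. Septin3, a cytoskeletal GTPase, was at -0.63 with overlapping groups. Gpr141b, an orphan receptor, was not well above background in any low-dose lung, so that vehicle over low was at least 1.52-fold. The 2 others were Arntl and Nfil3, described above. With median centring in place of loess none of the 10 lowered genes passed the thresholds, and 202 genes rose.

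The AhR, NRF2, major histocompatibility complex (MHC) class II and interferon-stimulated lists, of 8, 12, 9 and 13 genes, held no DEG at the low dose. Over all genes 0.422% rose and 0.0269% fell, so lists this small can hold none without being set apart from other genes. The medians of these lists, in the same order, were -0.03, -0.01, -0.07 and 0.02. Cyp1a1, which AhR ligands induce in lung, lay at 0.84, 4.82, 1.44 and 2.83 in low-dose mice. These values overlapped those of the vehicle mice, with a change of -1.29 (adjusted p = 0.849, limma), or -0.14 without vehicle mouse 2. Ahrr, the repressor that AhR induces against itself, lay between -0.54 and -0.14 in vehicle and between 0.30 and 0.90 in low-dose mice. It was looked at after its values were seen, and with a change of 1.00 ± 0.42 (SE, adjusted p = 0.447, limma) it did not pass, although the groups did not overlap. The NRF2 target Gstm1 had an adjusted p of 0.0356 by limma, with a change of -0.42, under 1.5-fold, and the targets Hmox1 (0.09) and Gclc (-0.38) did not pass.

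The low dose was then compared with the higher doses directly, without the vehicle arrays that all doses share as control. Between the medium and the low dose no gene passed, or 0.0% in either direction. The smallest adjusted p by limma was 0.977, with 2634 probes at an unadjusted p under 0.05. The median difference of the mitosis genes was -0.24, or -0.19 with the slide as a block. In the mean over that list all 5 medium-dose mice, between -2.25 and -1.95, lay below all 4 low-dose mice, between -1.92 and -1.82. The groups almost touched, and 3 of the 5 medium-dose arrays lay on slide 3. The list was also chosen with earlier results of these data known, so this order is no test. Between the high and the low dose 106 genes were higher (0.285%) and 115 lower (0.309%) at the high dose, or 109 and 21 with median centring. Without high-dose mouse 18, whose mitosis mean of -2.12 was the highest of its group, 333 genes differed, and without low-dose mouse 6, 164 did. Of the 100 mitosis genes 49 were lower at the high dose and none higher, with a median difference of -0.59, and in the mean over the list all 5 high-dose mice, between -2.64 and -2.12, lay below all 4 low-dose mice. Ccna2 differed by -1.44 (adjusted p = 9.66e-05, limma), Mki67 by -1.49, Spc25 by -1.40 and Pimreg by -1.70. Single genes were named here from those called at the low dose. The low-dose arrays that chose them also enter the difference, so these values are no independent test. With median centring 12 mitosis genes were lower at the high dose. Of the DNA replication genes 3 were lower at the high dose, with Rrm2 at -1.11 (adjusted p = 0.0102, limma).

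Of the 30 p53 targets 4 were higher at the high dose and none lower, with a median difference of 0.17. Cdkn1a was higher by 1.23 (adjusted p = 0.00746, limma), Tnfrsf10b by 0.89 and Phlda3 by 0.89, whereas Gdf15 (0.78) and Bax (0.37) did not pass. Mmrn2 (1.53), Serp2 (0.99) and Pkn3 (0.90) were higher still at the high dose, and Car14 differed by -1.20. No clock gene differed between the high and the low dose by these thresholds. Against the shared vehicle mice, 48 mitosis genes were raised by 25, 30 by 50 and 2 by 100 mg/kg-bw/day. The p53 targets raised by these doses numbered 8, 9 and 14. Over all 37163 genes, the same doses raised 157, 182 and 507.

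In the forestomach of the mice at the same dose the list medians were -0.06 for mitosis, -0.05 for DNA replication and 0.07 for p53 targets. The low-dose change was higher in lung than in forestomach for 95 genes (0.256%) and lower for none. These included 37 mitosis, 8 DNA replication and 5 p53 target genes. With the mouse as a block, over the animals that gave both tissues, 81 genes differed. Mouse 7 gave a low-dose forestomach but no lung array, and without it 127 genes were higher and 7 lower in lung. In all, 66 genes differed without mouse 2, 64 without mouse 6, 57 without mouse 10 and 18 with median centring. Spc25 changed by 0.03 ± 0.14 (SE) in forestomach, and the difference from lung was 2.35 (adjusted p = 1.68e-08, limma). Gdf15 was at -0.07 in forestomach, and the difference was 2.39 (adjusted p = 0.000152, limma). No clock gene differed between lung and forestomach, with list medians of 0.47 in lung and -0.02 in forestomach. Dbp changed by 1.14 ± 0.38 (SE) in forestomach and, over all livers, by 2.18 ± 0.49 (SE) in liver, and passed in neither. The livers held arrays that stood apart. On the 8 liver arrays of 1 slide, which include vehicle mouse 5 and low-dose mice 6 and 10, at most 12.9% of probes were well above background, against 37.1% to 46.1% on the other livers. With all livers the medians were 0.33 for mitosis, 0.31 for DNA replication and 0.25 for p53 targets, and without that slide they were -0.05, 0.03 and 0.12. With all livers no gene differed between lung and liver by limma (0.0% in either direction), with 1976 probes at an unadjusted p under 0.05. Without that slide 18 genes were higher (0.0484%) and 6 lower (0.0161%) in lung, and 6 of those higher were mitosis genes. With all livers and the slide as a block 49 genes were higher and 5 lower, 9 of them mitosis genes, all higher. Spc25 was at 0.65 ± 0.40 (SE) in liver, or at 0.25 ± 0.31 (SE) without that slide, where the difference from lung was 2.13 (adjusted p = 0.0386, limma).

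**Figure D5:**
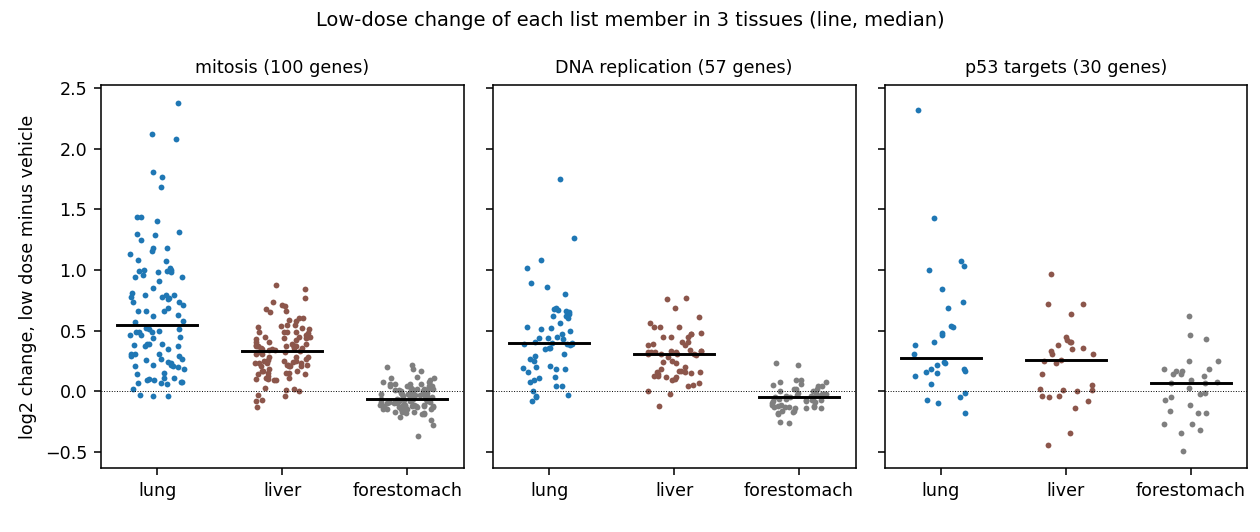
Change at the low dose (y axis, log2 low over vehicle) of each gene of the mitosis, DNA replication and p53 target lists in lung, liver and forestomach (x axis), with list medians as bars. For mitosis the medians are 0.54 in lung, 0.33 in liver, where the dim slide is included, and -0.06 in forestomach.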

How the data were processed

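Per the labels, total RNA was labelled with Cy5, the universal reference with Cy3, and both were hybridised without dye swaps to Agilent arrays of 62976 spots. The deposited scanner files (Feature Extraction 10.7.3.1) hold the median intensity of each spot in both channels, and the authors' separate table holds processed log2 ratios, used only as an alternative. In R 4.3.3 with limma 3.58.1, median intensities without background correction were loess-normalised within each array, as in the study's methods, and spots of a probe were averaged. Marked outlier and control spots were left out. The 55681 probes gave 20018 symbols from 26413 probes through the accession, and 29268 probes kept the array's name. Unmatched list members included Kif14, Kifc1 and Ptprv.

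All 19 lung arrays entered 1 limma model of dose group, with Benjamini-Hochberg adjustment over all probes. The MAANOVA Fs test of the study was not run. The number of arrays limits the precision. A called gene is given by its brightest called probe and list medians by the brightest probe. For probes well above background on no array of a group, "at least" folds give a bound. They set the other group's mean against the higher, per array, of the probe's own signal and the lowest signal well above background. Where that mean was not the higher, no bound is given. These bounds rest on channels without a dye swap and are open to dye bias. The script was tested on simulated data.

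Genes were named by rule as the 10 largest changes in each direction, the 5 largest of each list subgroup, the first 3 members of lists without a call, and the 5 largest differences between doses. The last were taken among genes also called at the low dose. Members and lists were chosen with earlier results of these data known. Alternatives were normexp with an offset of 50, median centring, the authors' values, no dim probes, marked spots kept, slide as a block, vehicle and low-dose arrays alone, and each mouse left out. The values of 1 gene of the recombination list are not reported here.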

Additional observations from a re-analysis of the deposited data

Results flagged for a closer look

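Of 198 groups of vehicle or low-dose values examined, 17 held a mouse far from the others, where chance gives about 1 in 20. Vehicle mouse 2 stood apart in Cyp1a1 (8.39), Cyp1b1 (0.21, others -1.60 to -1.28) and the mean of AhR targets (1.09, others -0.26 to 0.02). It also did so in Ccnjl (-0.94), Ncaph (-3.08) and Phlda3 (0.38). Vehicle mouse 3 stood apart in Car14 (2.11), Tnfrsf10b (-1.52), Serp2 (-0.40) and the heart muscle marker mean (0.18, others 2.79 to 3.77). Vehicle mouse 4 did so in Kif22 (-3.09), Cdca3 (-2.96) and Trp53inp1 (1.02), and vehicle mouse 1 in the mesothelial marker mean (0.40, others -2.72 to -1.83). Among low-dose mice, mouse 6 stood apart in Mmrn2 (6.17, others 7.09 to 7.26) and in the squamous marker mean (2.95), and mouse 10 in Ifit1 (-0.03, others -0.55 to -0.51).

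The low-dose change differed between lung and forestomach for 95 genes by the limma test of the difference, all higher in lung.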

How the results depend on the processing

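The number of low-dose DEGs was 167 and lay between 155 and 202 under the other settings and between 135 (without mouse 10) and 170 with a mouse left out. Mitosis genes called numbered 46 to 54, or 44 to 52 with a mouse left out, DNA replication genes 11 to 15, or 8 to 12, and p53 targets 8 to 9, or 7 to 9. Of the 60 named DEGs, median centring lost 5 (Arntl, Car14, Nfil3, Ccnjl and Prim1), the authors' values lost Mmrn2, the slide block lost Pcna, and the fit of vehicle and low-dose arrays alone lost 4 (Arntl, Nfil3, Ccnjl and Nr1d2); none changed direction. High minus low gave 221 DEGs, 130 under median centring (109 higher and 21 lower at the high dose, of which 12 mitosis genes), and 158 to 333 with a mouse left out, the highest without mouse 18. Lung against liver gave 0 genes, 2 under median centring, 54 with the slide as a block, 24 without the dim liver slide (chosen after seeing the data), 0 with the mouse as a replicate block and 0 to 1 with a mouse left out. Lung against forestomach gave 95, 18 under median centring, 123 with the slide block, 81 with the mouse as a replicate block, and 57 (without mouse 10) to 134 with a mouse left out. The cause was not tested. Of genes that did not pass in any setting, H2-Aa (0.02), H2-Ab1 (0.17), H2-Eb1 (0.22) and Ifit1 (0.11) turned positive under median centring, Ifit2 (-0.01) and Ifit3 (-0.01) turned negative with the authors' values, and Ifit3 (-0.01) with the slide block. With a mouse left out Gclm ranged from -0.05 to 0.10, H2-Eb1 from -0.11 to 0.01, Ifit1 from -0.18 to 0.09 and Ifit3 from -0.10 to 0.10. DEGs were not counted within single slides. No paired analysis was possible between lung dose groups because they hold different mice. Genes well above background on no array of a group have only a bound, and Spag5 has none.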
